A study of Mus musculus with 12 samples.

Results

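The effect of PROSER1 loss on the transcriptome was set side by side at 2 stages, in mouse embryonic stem cells (mESC) and at day 2 of differentiation, and the genes described here are those whose KO effect differed between the stages. For each gene the stage difference was (KO day 2 − WT day 2) − (KO mESC − WT mESC), with every group mean taken on the log2(normalised count + 1) scale. A stage difference above 0 means that KO stood higher relative to WT at day 2 than in mESC, and one below 0 means that it stood lower. Members were taken where the 12 libraries of the series averaged 10 normalised counts or more, which left 15341 of 35976 genes. BB287469 (mean 10.005) was just inside this limit and LOC100503338 (mean 9.99) just outside it.

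WT, KO and KO+Rescue lines were each sequenced at both stages with 2 libraries per group. All of these lines came from blastocysts of TET2 fl/fl mice, so WT cells also carry the floxed Tet2 alleles. The KO line was a single clone, sorted after CRISPR cutting in exon 1 of Proser1, and KO+Rescue is a further clone of it carrying a PiggyBac transgene for FLAG-tagged PROSER1. The mESC were grown without feeders on gelatin, in serum with LIF, the MEK inhibitor PD0325901 and the GSK3 inhibitor CHIR99021. The day 2 cells had spent 48 hr as a monolayer in N2B27, for which these inhibitors are not listed, so the stage contrast spans the change of medium as well as the change of state. The labels call the libraries biological replicates but do not give the separation of the cultures. The p-values thus measure the spread between these libraries, which may be partly technical.

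PROSER1 binds TET proteins, the dioxygenases that oxidise methylated cytosine, and OGT, the enzyme that attaches O-linked N-acetylglucosamine to proteins. Stem cells held by LIF and inhibitors of MEK and GSK3 keep the naive state. Once these are withdrawn, FGF and ERK signalling moves them to a formative state, in which naive genes such as Esrrb and Klf4 are shut down and genes such as Fgf5 and Dnmt3b come on. Interferon-stimulated genes form a separate programme, in which activated transcription factors bind GAS and ISRE elements and IRF1 carries the response on to guanylate-binding proteins and antigen presentation.

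The 4 mESC libraries of WT and KO held 39731263 to 52657405 assigned read pairs and the 4 at day 2 held 61111817 to 66450803. Markers of embryonic stem cells summed to 317755 to 531783 normalised counts per library in WT and KO mESC and to 79183 to 117091 at day 2, with none of the 8 markers at 0. Of 6 macrophage markers, Adgre1 was at 0 in every group, Tyrobp in both mESC groups and WT day 2, and only Cd68 passed the limit on the mean. The 11 fibroblast and feeder markers summed to 418 to 465 in WT mESC, 434 to 445 in KO mESC, 1251 to 1397 in WT day 2 and 1766 to 1903 in KO day 2. Postn and Prrx1 were at 0 in WT mESC, and Postn, Lum and Prrx1 in KO mESC. At day 2 only S100a4 was at 0 in WT and only Postn in KO. Of these markers 6 passed the limit on the mean, and Thy1 alone had a called stage difference (16.7%, against 1.13% of all tested genes).

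WT and KO cells also differed in Y-linked transcripts, although the study describes the removal of Y-chromosome reads. The 6 Y-linked genes that passed the limit on the mean (Ddx3y, Eif2s3y, Kdm5d, Uba1y, Uty and Zfy1) summed to 15 to 31 reads in the 4 WT libraries, 11032 to 13848 in KO and 7943 to 12033 in KO+Rescue, while Xist had 0 to 9 reads in all 12 libraries. WT and KO therefore differed in their Y-linked RNA at both stages in addition to PROSER1, and for any single gene the PROSER1 genotype and this difference between the lines cannot be told apart. KO+Rescue shares the Y-linked RNA of KO, and its values are given beside those of KO.

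**Figure D1:**
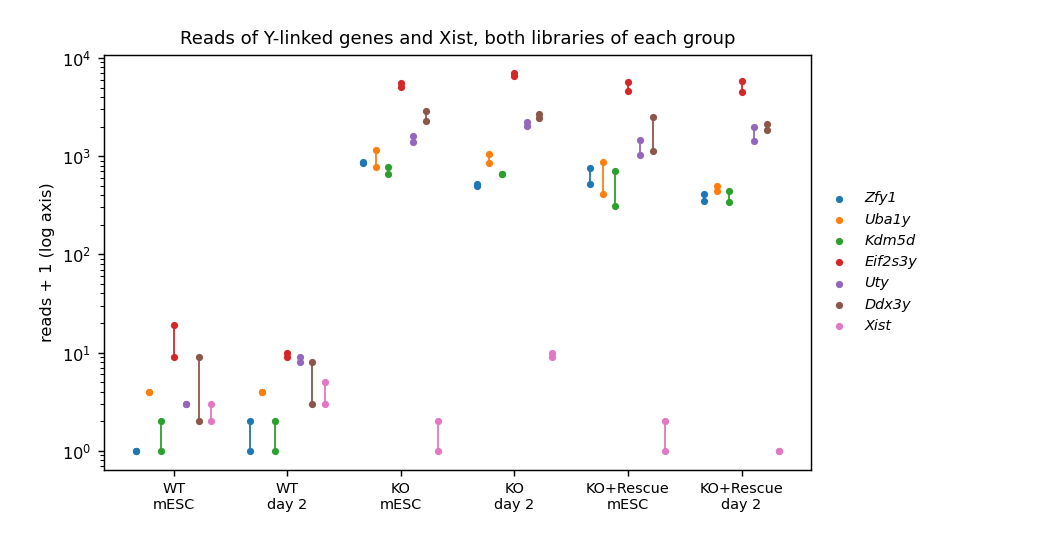
Reads per library for 6 Y-linked genes and Xist in WT, KO and KO+Rescue at both stages, as reads + 1 on a log axis, with 1 point per library. Summed over the 6 Y-linked genes, the WT libraries lie between 15 and 31 reads and the KO libraries between 11032 and 13848.

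Of 15341 genes, 173 had a stage difference that passed the test (1.13% of genes tested, limma at an adjusted p under 0.05), 77 of them above 0 (0.502%) and 96 below 0 (0.626%). Their sizes ran from 0.77 to 4.92 on the log2 scale with a median of 1.58, and 53 were over 4-fold. The median stage difference of all genes was 0.02. For every one of the 173 genes the 4 single-library differences between KO and WT at day 2 lay outside the range of the 4 in mESC. This was so for 3976 of all genes (25.9%). The same libraries gave the calls, so this is no separate support for them. An unadjusted p under 0.05 was reached by 1983 genes.

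Most of the 96 genes below 0 were called lower in KO at day 2 and not in mESC. KO against WT called 1455 genes in mESC (9.48%), 495 higher (3.23%) and 960 lower (6.26%), and 799 genes at day 2 (5.21%), 241 higher (1.57%) and 558 lower (3.64%). Among the 96, 62 were called lower in KO at day 2 alone, 15 were higher in KO mESC and lower in KO day 2, 13 were higher in KO mESC alone and 5 were lower at both stages. The remaining gene, the Y-linked Zfy1, was higher in KO at both. Among the 77 genes above 0, 56 were called lower in KO in mESC alone and 13 higher in KO at day 2 alone. A further 5 were lower in mESC and higher at day 2, 2 were lower at both stages (Grb10 and Crabp1) and 1 was higher at both (Mcf2). The largest class was thus lower in KO on either side of 0, at day 2 for the 62 genes and in mESC for the 56.

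**Figure D2:**
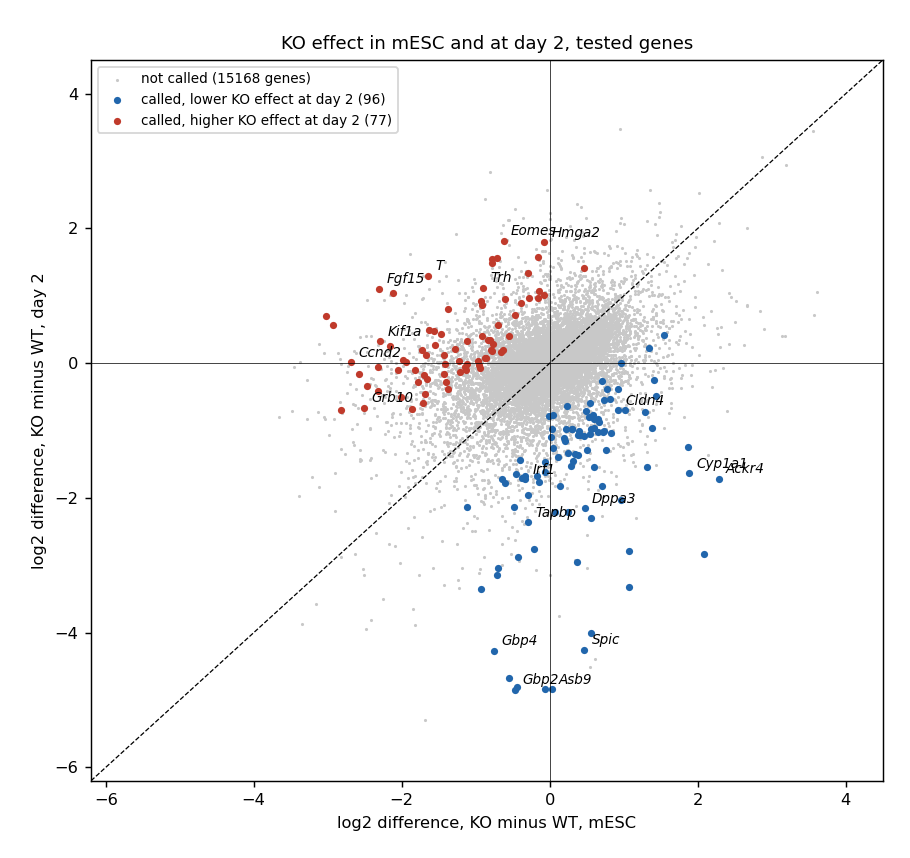
KO minus WT in mESC (horizontal axis) against KO minus WT at day 2 (vertical axis), both as differences of group means of log2(normalised count + 1), with 1 point per gene and genes that passed the test of the stage difference in colour. Genes with equal KO effects lie on the diagonal, 77 called genes lie above it and 96 below it, and 10 genes that were not called and Zfy1 fall outside the axes.

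Read along time, the same genes differed in their response to the withdrawal of the stem cell medium. Between mESC and day 2, 7967 genes changed in WT (51.9%), 4079 up (26.6%) and 3888 down (25.3%), and 9219 changed in KO (60.1%), 4820 up (31.4%) and 4399 down (28.7%). Of the 96 genes below 0, 34 fell in both lines, 21 rose in WT and fell in KO, 20 were called in KO alone, where they fell, 19 rose in WT without a call in KO and 2 rose in both. Of the 77 above 0, 41 rose in both lines, 15 rose in KO alone, 10 fell in both, 7 fell in WT alone and 4 fell in WT and rose in KO. In total 25 genes were called in both lines with opposite directions.

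Among called genes in the 40 gene lists, Gbp3 (−4.77) and Gbp2 (−4.38) lay furthest below 0, followed by Zbp1 (−4.36). Gbp3 and Gbp2 encode guanylate-binding proteins (GBPs), interferon-induced GTPases that attack membranes around intracellular pathogens. Short elements for interferon signalling are known from their promoters, so the 250 bases before a transcript start are printed below for 4 GBP genes and for Irf1. They are given as in RefSeq for build GRCm38.p6, all on the plus strand. Of the 4 GBP genes, Gbp7 was not called, and the called Gbp4 had no promoter in the set used. Capitals mark matches to an ISRE-type motif (GAAANNGAA) or a GAS-type motif (TTCNNNGAA), each searched on both strands, and the 2 motifs do not overlap in any of the 5. The regions are chr3:142620413-142620662 (Gbp2), chr3:142594597-142594846 (Gbp2b), chr3:142559794-142560043 (Gbp3), chr3:142530086-142530335 (Gbp7) and chr11:53769764-53770013 (Irf1). RefSeq gives a further start for Gbp3 (chr3:142560106-142560355) and for Irf1 (chr11:53770223-53770472), and these windows, not printed, hold no match to either motif.
Gbp2: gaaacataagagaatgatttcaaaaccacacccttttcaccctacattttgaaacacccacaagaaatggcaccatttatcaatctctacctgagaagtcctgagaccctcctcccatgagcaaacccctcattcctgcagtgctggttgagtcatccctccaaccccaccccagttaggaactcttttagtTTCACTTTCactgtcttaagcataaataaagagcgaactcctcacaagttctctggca
Gbp2b: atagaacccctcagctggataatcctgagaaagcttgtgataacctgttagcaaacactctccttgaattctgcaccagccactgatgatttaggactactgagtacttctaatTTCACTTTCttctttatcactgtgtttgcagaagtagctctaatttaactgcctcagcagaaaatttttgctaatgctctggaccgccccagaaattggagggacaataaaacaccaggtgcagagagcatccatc
Gbp3: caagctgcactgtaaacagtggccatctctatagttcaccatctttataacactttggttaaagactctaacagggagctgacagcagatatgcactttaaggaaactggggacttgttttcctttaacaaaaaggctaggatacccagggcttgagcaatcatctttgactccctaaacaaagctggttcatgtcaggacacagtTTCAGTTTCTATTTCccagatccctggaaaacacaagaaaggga
Gbp7: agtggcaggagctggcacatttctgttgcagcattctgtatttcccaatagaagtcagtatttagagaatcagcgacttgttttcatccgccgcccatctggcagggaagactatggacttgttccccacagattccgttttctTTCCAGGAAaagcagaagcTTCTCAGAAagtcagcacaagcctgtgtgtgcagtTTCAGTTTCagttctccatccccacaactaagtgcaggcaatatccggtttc
Irf1: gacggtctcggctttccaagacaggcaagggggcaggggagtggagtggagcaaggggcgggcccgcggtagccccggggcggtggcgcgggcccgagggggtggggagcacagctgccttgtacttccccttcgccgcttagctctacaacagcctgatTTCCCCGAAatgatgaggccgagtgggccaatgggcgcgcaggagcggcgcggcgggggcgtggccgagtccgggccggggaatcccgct

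In these 5 promoters the ISRE-type match began 58 bases before the start in Gbp2, 136 in Gbp2b, 52 in Gbp7 and 44 and 38 in Gbp3, whose 2 matches overlap. The GAS-type matches began 106 and 87 bases before the start in Gbp7 and 90 in Irf1. An ISRE-type match was present in 7 of the 8 promoters given for the list of guanylate-binding proteins and related GTPases (87.5%), in 12 of 39 for the interferon response list (30.8%) and in 838 of 14582 promoters of all tested genes with a promoter (5.75%). Among the genes called below 0 it was in 12 of 88 promoters (13.6%) and among those above 0 in 3 of 84 (3.57%). The GAS-type motif was in 3 of 8 (37.5%), 7 of 39 (17.9%) and 860 of all promoters (5.9%), in the same order of sets. A match is a description of the letters in this window and was not tested as a site.

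Guanylate-binding proteins rose in WT on leaving the stem cell state, with few calls in KO. Of 10 tested members of the list with the related IRG GTPases, 4 were called below 0 (40.0%, against 1.13% of all tested genes). None was called above 0, all 10 stage differences were below 0, and their median was −2.32. In WT 7 of the 10 rose from mESC to day 2 and in KO 1 did, against 26.6% and 31.4% of all tested genes. KO was called lower for 9 at day 2 and for 1 in mESC, against 3.64% and 6.26% of all tested genes.

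Gbp2 had 55.7 and 73.3 normalised counts in the 2 WT mESC libraries, 45.9 in each KO mESC library, 1610 and 1994 in WT day 2, and 76.1 and 49.4 in KO day 2. No difference between WT and KO was called in mESC, and at day 2 WT and KO did not overlap, a stage difference of −4.38 ± 0.68 (log2, SE, adjusted p = 0.00697), or 20.8-fold. Gbp2b, its neighbour on chromosome 3, went from 33.2 and 59.0 in WT mESC to 1128 and 1226 in WT day 2, and from 23.5 and 37.8 in KO mESC to 40.6 and 50.1 in KO day 2 (−4.12 ± 0.56, adjusted p = 0.00329). Gbp3, in the same cluster, reached 243 and 332 in WT day 2 against 5.91 and 13.5 in KO day 2, from 14.2 to 17.8 in the 4 mESC libraries of both lines (−4.77 ± 0.83, adjusted p = 0.0146). Gbp4 lies in another cluster on chromosome 5 and behaved differently in time. It had 135 and 182 in WT mESC, 86.3 and 99.8 in KO mESC, 269 and 297 in WT day 2 and 8.86 and 21.0 in KO day 2, so that KO fell between the stages while the change in WT was not called (−3.52 ± 0.51, adjusted p = 0.00474). GBP genes are close copies of each other, and how the counting shared reads between them is not known, so the split among members is uncertain.

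The remaining members of the list missed the threshold. Irgm1, an immunity-related GTPase, was already lower in KO in mESC, at 62.3 against 301 in WT (group means), and at day 2 it was at 55.4 against 638 (−1.24 ± 0.33, adjusted p = 0.103). Gbp7 had group means of 3.98 and 3.14 in WT and KO mESC and 125 and 14.1 at day 2 (−2.89 ± 0.94, adjusted p = 0.188). Without library B of KO day 2 the call for Gbp2 was lost (adjusted p = 0.0532). Gbp3 was lost without library A or B of KO mESC, library B of WT day 2 or library A of KO day 2 (adjusted p up to 0.097), while Gbp2b and Gbp4 passed in all 8 fits that left out 1 library.

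**Figure D3:**
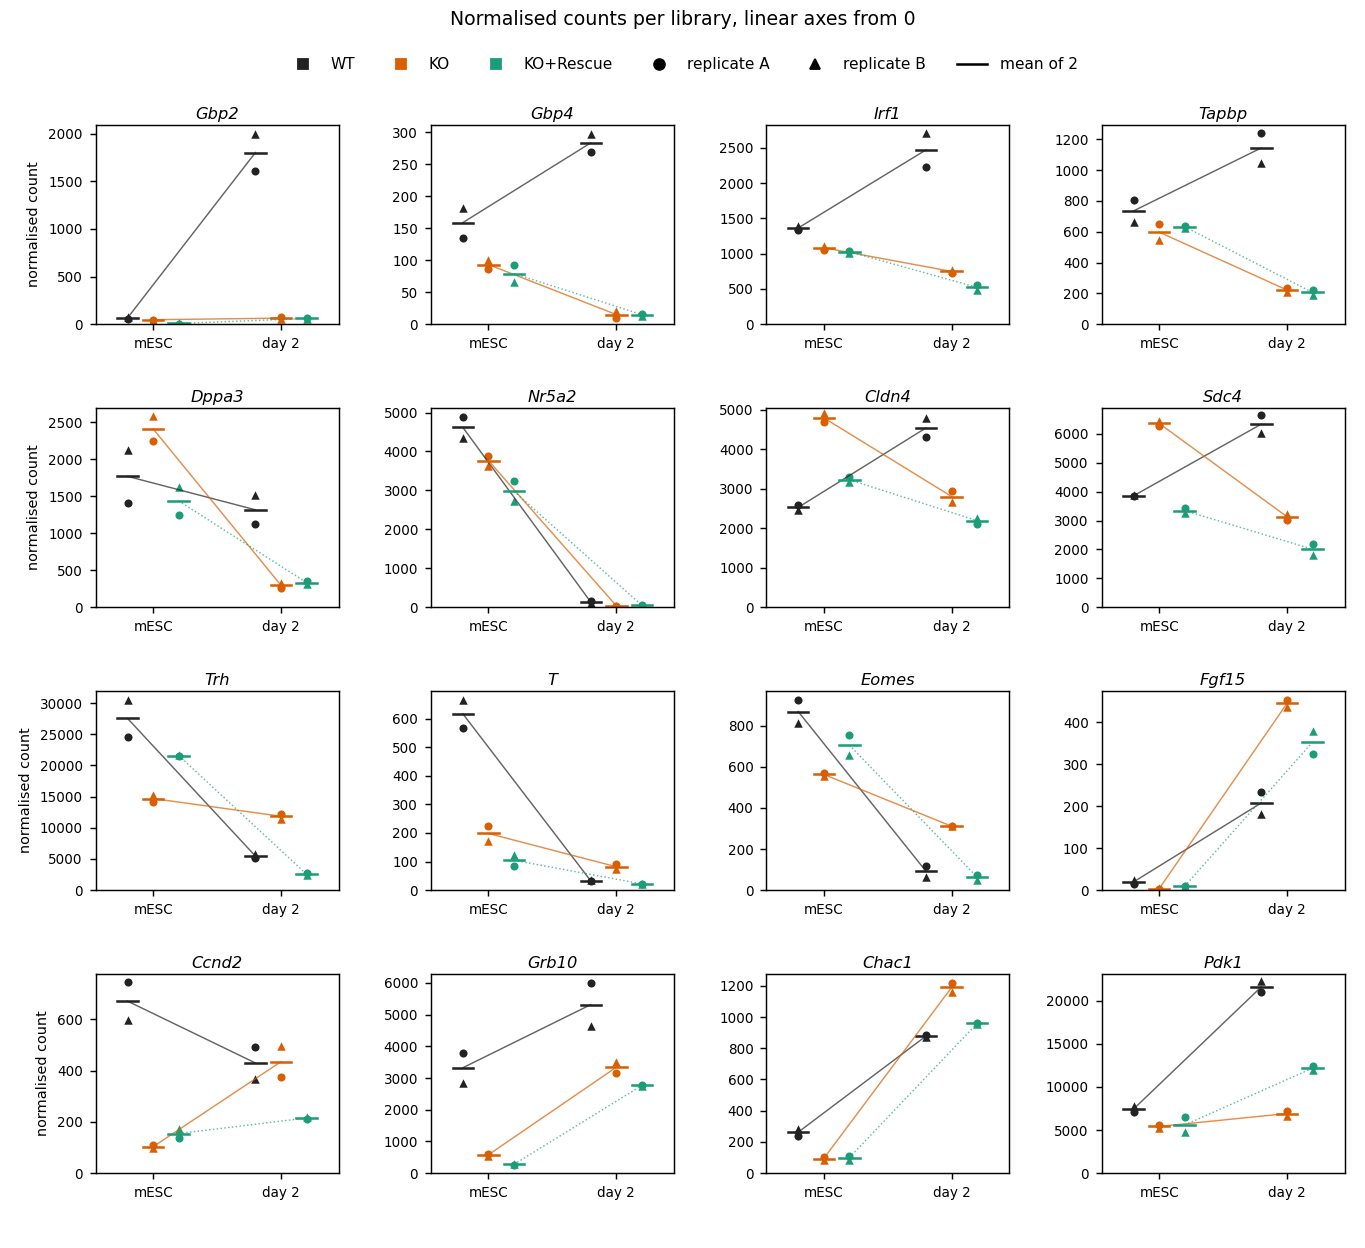
Normalised counts in each library of WT, KO and KO+Rescue in mESC and at day 2 for 16 named genes, with 1 point per library, a bar at the group mean and linear axes that start at 0. For Gbp2 the WT day 2 libraries stand at 1610 and 1994 and the other groups of WT and KO below 100, and for Trh the order of WT and KO turns round between the stages.

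The wider interferon response was split. Of 42 tested members, 4 were called below 0 (9.52%, against 1.13% of all tested genes) and none above 0. The median was −0.27, with 31 members below 0. Irf1, the transcription factor that interferon gamma induces first, had 1341 and 1385 normalised counts in WT mESC, 1053 and 1113 in KO mESC, 2228 and 2715 in WT day 2 and 725 and 768 in KO day 2. It rose in WT and fell in KO, a stage difference of −1.39 ± 0.19 (adjusted p = 0.00329). Zbp1, a sensor of Z-form nucleic acid that triggers cell death, went from 62.1 and 65.2 to 130 and 146 in WT and from 45.9 and 47.1 to 2.95 and 5.24 in KO (−4.36 ± 0.54, adjusted p = 0.00186). Parp14, an interferon-induced ADP-ribosyltransferase, went from 144 and 166 to 284 and 332 in WT and from 71.7 and 91.7 to 25.9 and 32.9 in KO (−2.43 ± 0.35, adjusted p = 0.00466). WT and KO did not overlap at day 2 for any of these genes. The related Parp9 stayed at 1125 to 1731 in the 4 WT libraries and was at 1305 and 1439 in KO mESC and 452 in each KO day 2 library (−1.54 ± 0.30, adjusted p = 0.0259).

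Of the receptors and signal carriers in the same list, 8 had small stage differences that did not pass. The type I receptor genes Ifnar1 and Ifnar2 had stage differences of 0.14 ± 0.16 and 0.04 ± 0.23, and the type II receptor genes Ifngr1 and Ifngr2 had 0.00 ± 0.39 and −0.07 ± 0.30. The kinase genes Jak1 and Jak2 had −0.13 ± 0.23 and −0.06 ± 0.36, and Stat2 and Irf9 had −0.25 ± 0.21 and −0.18 ± 0.30. Targets were unequal. Isg15, a ubiquitin-like modifier, was at a mean of 63.8 in WT day 2 and 3.37 in KO day 2 (−5.06 ± 1.23, adjusted p = 0.0796), whereas Ifit2 was at 134 and 103 and Bst2 at 2993 and 2443, with stage differences of 0.43 ± 0.55 and 0.45 ± 0.22.

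In the antigen presentation list, 1 of 14 members was called (7.14%, against 1.13% of all tested genes), and 9 lay below 0 with a median of −0.82. Tapbp, the tapasin that loads peptides onto MHC class I, had 665 and 805 in WT mESC, 544 and 652 in KO mESC, 1048 and 1242 in WT day 2 and 211 and 232 in KO day 2, rising in WT and falling in KO (−2.06 ± 0.24, adjusted p = 0.0018). The class I heavy chains did not share this pattern. H2-K1 was lower in KO at both stages, with group means of 206 against 607 in mESC and 1780 against 3435 at day 2, and its stage difference was 0.60 ± 0.19 (adjusted p = 0.174), and that of H2-D1 was 0.32 ± 0.21. The 8 fits that left out 1 library kept the calls of Irf1, Zbp1, Parp14 and Tapbp, and lost that of Parp9 without library A of WT mESC, library B of WT day 2 or any of the 4 KO libraries (adjusted p up to 0.137).

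Cd274, which encodes the checkpoint ligand PD-L1, is in none of the lists and was named for its size. It had 1.19 and 2.04 in WT mESC, 2.24 and 8.09 in KO mESC, 86.9 and 93.8 in WT day 2 and 7.48 and 8.86 in KO day 2 (−4.40 ± 0.85, adjusted p = 0.0245). The mESC values rest on a handful of reads, and the call was lost without library A of WT mESC, library B of KO mESC or any 1 of the 4 day 2 libraries (adjusted p up to 0.114).

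Naive pluripotency genes were shut down in both lines, and some of them further in KO. Of 21 tested members, 20 fell in WT and 20 in KO, against 25.3% and 28.7% of all tested genes. A stage difference was called below 0 for 5 (23.8%, against 1.13% of all tested genes) and above 0 for none. The median was −0.18 with 11 members below 0. Dppa3, which encodes the STELLA protein of oocytes and germ cells that restrains UHRF1 and maintenance methylation, had 1406 and 2129 in WT mESC, 2240 and 2578 in KO mESC, 1122 and 1509 in WT day 2 and 262 and 326 in KO day 2. Its fall was called in KO and not in WT (−2.62 ± 0.30, adjusted p = 0.0018). Dppa3 is also the single called member of 27 in the list on DNA methylation and silencing (3.7%, against 1.13% of all tested genes). That list had a median of 0.20. Nr5a2, a nuclear receptor of the naive network, had 4355 and 4878 in WT mESC and 3634 and 3895 in KO mESC, against 114 and 148 in WT day 2 and 26.6 and 40.4 in KO day 2 (−1.66 ± 0.31, adjusted p = 0.0203). Pecam1, a surface adhesion molecule, was called lower in KO at both stages and by more at day 2 (−1.17 ± 0.21, adjusted p = 0.0175). It was at 2051 and 2291 in WT mESC, 1288 and 1570 in KO mESC, 762 and 929 in WT day 2 and 242 and 248 in KO day 2. Fbxo15, an F-box gene bound by OCT4, was at 975 and 1523 in WT day 2 and 660 and 712 in KO day 2, from 12992 and 17122 in WT and 21213 and 23870 in KO mESC (−1.42 ± 0.27, adjusted p = 0.0242).

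Tdh, the threonine dehydrogenase of mouse stem cells and the fifth called member, had a small stage difference with an adjusted p just under the threshold (−0.77 ± 0.17, adjusted p = 0.0495). Esrrb, at −1.27 ± 0.30 (adjusted p = 0.0637), was further below 0 than Pecam1 and Tdh but did not pass. Klf4 and Tfcp2l1 had stage differences of 0.21 ± 0.28 and 0.13 ± 0.33. Nanog had group means of 34018 in WT mESC, 44791 in KO mESC, 692 in WT day 2 and 1656 in KO day 2, and its stage difference of 0.90 ± 0.27 (adjusted p = 0.152) lay above 0. Dppa3 was called in all 8 fits that left out 1 library. Nr5a2 was lost without library A or B of KO mESC or library A of KO day 2 (adjusted p up to 0.108). Pecam1 was lost without library A of KO mESC, library B of WT day 2 or either KO day 2 library (up to 0.0996). Fbxo15 was lost without library A of WT mESC or any KO library (up to 0.147), and Tdh in 7 of 8, all but library B of WT mESC (up to 0.255).

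Among 40 tested genes of the germline and meiosis list, 18 were called lower in KO in mESC and 13 at day 2. Over all tested genes these shares were 6.26% and 3.64%. A called stage difference was found for 1 of the 40 (2.5%, against 1.13% of all tested genes). Tex19.1, a germline gene that guards against retrotransposons, had 8727 and 10613 in WT mESC, 6109 and 6253 in KO mESC, 5615 and 6887 in WT day 2 and 1837 and 1955 in KO day 2. KO was below WT at both stages and by more at day 2 (−1.07 ± 0.19, adjusted p = 0.0175). The call was lost without library A of WT mESC or any 1 of the 4 KO libraries (adjusted p up to 0.114). The median of the list was 0.16.

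For 15 genes KO was above WT in mESC and below WT at day 2, each by its own test. Cldn4, a claudin of tight junctions, had 2460 and 2597 in WT mESC, 4687 and 4915 in KO mESC, 4305 and 4789 in WT day 2 and 2673 and 2937 in KO day 2. WT and KO thus changed places, without overlap at either stage (−1.62 ± 0.16, adjusted p = 0.000943). Sdc4, a cell surface heparan sulphate proteoglycan, did the same, from 3834 and 3879 in WT against 6294 and 6444 in KO mESC to 6021 and 6665 against 3024 and 3241 at day 2 (−1.74 ± 0.17, adjusted p = 0.000943). Ptgr1, a reductase of prostaglandins and lipid aldehydes, had 1936 and 2773 in WT mESC, 3601 and 4258 in KO mESC, 9216 and 10763 in WT day 2 and 4052 and 4133 in KO day 2, so that it rose in WT with no call for a change in KO (−2.04 ± 0.24, adjusted p = 0.0018). Gstp2, a glutathione S-transferase, fell in both lines, from 916 and 1206 to 392 and 445 in WT and from 1643 and 1674 to 190 and 222 in KO (−1.68 ± 0.23, adjusted p = 0.00329). Gstp2 is a close copy of Gstp1, so its reads may be shared with that gene.

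A pair of lowly expressed genes had the largest stage differences in this group. Ackr4, an atypical receptor that scavenges chemokines, had 7.11 and 17.3 in WT mESC, 50.4 and 67.4 in KO mESC, 174 and 259 in WT day 2 and 58.4 and 69.6 in KO day 2 (−4.00 ± 0.57, adjusted p = 0.00408). It rose in WT, and no change was called in KO. Cyp1a1, the cytochrome P450 induced through the aryl hydrocarbon receptor, had 10.2 and 16.6 in WT mESC, 49.9 and 51.5 in KO mESC, 125 and 148 in WT day 2 and 38.2 and 48.8 in KO day 2 (−3.52 ± 0.53, adjusted p = 0.00609). Ackr3, Lhfpl2, Klhl3 and 2610037D02Rik completed the 10 genes named for this pattern, with stage differences of −2.86 ± 0.52, −1.87 ± 0.32, −1.72 ± 0.26 and −1.73 ± 0.28. Ackr3, a scavenging receptor for CXCL12, was lost without library A of WT mESC, library B of WT day 2 or any KO library (adjusted p up to 0.0969). Lhfpl2 was lost without either KO mESC library or library A of KO day 2 (up to 0.0997), and 2610037D02Rik without library B of KO mESC or library A of KO day 2 (up to 0.0751). Klhl3, a substrate adaptor for a ubiquitin ligase, was lost without library B of KO mESC (0.0538). The other 6 were called in all 8 fits.

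The reverse pattern, KO below WT in mESC and above it at day 2, was found for 5 genes. Trh, the precursor of thyrotropin-releasing hormone, had the highest counts, with 24519 and 30550 in WT mESC, 14167 and 15201 in KO mESC, 5200 and 5718 in WT day 2 and 11450 and 12233 in KO day 2. WT fell between the stages, no change was called in KO, and the stage difference was 2.02 ± 0.19 (adjusted p = 0.000943). T, the Brachyury factor of the primitive streak, had 569 and 665 in WT mESC, 171 and 225 in KO mESC, 30.3 and 34.8 in WT day 2 and 73.3 and 90.1 in KO day 2 (2.94 ± 0.37, adjusted p = 0.00186). Vrtn, a regulator of vertebral number, rose in both lines and further in KO, from 296 and 327 to 2246 and 2785 in WT and from 221 and 228 to 4008 and 4166 in KO (1.18 ± 0.19, adjusted p = 0.01). Ddah1, which degrades methylarginine inhibitors of nitric oxide synthase, and Arhgef5, a guanine nucleotide exchange factor, had stage differences of 1.78 ± 0.28 and 1.85 ± 0.30. Trh and T were called in all 8 fits that left out 1 library. Vrtn was lost without any 1 of the 4 KO libraries (adjusted p up to 0.0801). Ddah1 was lost without library B of KO mESC or of KO day 2 (up to 0.0543), and Arhgef5 without library B of KO mESC or either KO day 2 library (up to 0.0844).

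Primitive streak and mesendoderm genes, which mESC express in the presence of a GSK3 inhibitor, included 3 that WT lost further than KO. In this list, 3 of 16 members were called above 0 (T, Trh and Eomes) and none below 0. Called members made up 18.8%, against 1.13% of all tested genes. The median was 0.68, with 10 members above 0. Eomes, the T-box factor of endoderm and mesoderm, had 813 and 927 in WT mESC, 556 and 571 in KO mESC, 65.2 and 117 in WT day 2 and 310 and 312 in KO day 2 (2.44 ± 0.35, adjusted p = 0.00466). It was called in all 8 fits that left out 1 library. Wnt3 had group means of 37 and 22 in WT and KO mESC and 77.1 and 176 at day 2 (1.84 ± 0.48, adjusted p = 0.0968), and Mixl1, Gsc and Cdx1, at 0.63 ± 0.64, −0.89 ± 1.03 and −0.99 ± 0.55, did not pass either. Of the Nodal and activin list, 1 of 21 was called (4.76%, against 1.13% of all tested genes). This was Smad7, an inhibitory SMAD, at 0.95 ± 0.21 (adjusted p = 0.0459). Its call was lost in 7 of the 8 fits that left out 1 library, all but the one without library B of WT mESC. In these fits its stage difference was 0.79 to 1.12.

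Most of the calls among FGF and ERK genes were above 0. In the list of FGF ligands and receptors 1 of 16 was called above 0 and 1 below (12.5%, against 1.13% of all tested genes). The median was 0.64 with 13 above 0. Fgf15, a secreted FGF of the early nervous system, had 15.4 and 23.4 in WT mESC, 2.24 and 4.05 in KO mESC, 182 and 234 in WT day 2 and 437 and 452 in KO day 2 (3.41 ± 0.45, adjusted p = 0.00281). It rose in both lines, and the KO values in mESC rest on a few reads. Fgf5, the ligand that marks the formative state, had group means of 23.5 and 25.1 in WT and KO mESC and 1756 and 5500 at day 2, and its stage difference of 1.73 ± 0.59 missed the threshold (adjusted p = 0.21). Fgfbp1, a carrier that releases FGFs from the matrix, had 400 and 520 in WT mESC, 705 and 813 in KO mESC, 396 and 514 in WT day 2 and 302 and 315 in KO day 2 (−1.28 ± 0.26, adjusted p = 0.0343).

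In the list of ERK feedback and ETS target genes 2 of 20 were called, against 1.13% of all tested genes. Both were called above 0, against 0.502% of all tested genes. The median was 0.31 with 15 members above 0. Il17rd, the SEF inhibitor of FGF receptor signalling, had 616 and 793 in WT mESC, 553 and 590 in KO mESC, 563 and 604 in WT day 2 and 1328 and 1651 in KO day 2 (1.63 ± 0.22, adjusted p = 0.00302). Myc had 1789 and 2563 in WT mESC, 874 and 961 in KO mESC, 1159 and 1371 in WT day 2 and 1240 and 1336 in KO day 2 (1.25 ± 0.24, adjusted p = 0.0237). KO was called below WT for Myc in mESC and not at day 2. The negative feedback genes Dusp6 and Spry4 and the ETS factor gene Etv4 were called lower in KO in mESC and not at day 2. Their own stage differences of 0.77 ± 0.19, 1.05 ± 0.26 and 0.62 ± 0.20 did not pass (adjusted p = 0.0816, 0.0885 and 0.184). Fgf15 and Il17rd were called in all 8 fits that left out 1 library, while Myc and Fgfbp1 were each lost without library A of WT mESC, library B of WT day 2 or any KO library (adjusted p up to 0.147 and 0.159).

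The largest class among genes above 0 was made of those lower in KO in mESC that had no call against WT at day 2. Ccnd2, cyclin D2, had 597 and 746 in WT mESC, 97.1 and 109 in KO mESC, 367 and 493 in WT day 2 and 374 and 496 in KO day 2, so that WT and KO overlapped at day 2 (2.71 ± 0.30, adjusted p = 0.0018). It was the only called gene of 22 G1 cyclins and CDK regulators (4.55%, against 1.13% of all tested genes). The median of that list was 0.00. D1Pas1, an autosomal DEAD-box gene closely related to Ddx3x and to the Y-linked Ddx3y, had 1520 and 1800 in WT mESC, 281 and 314 in KO mESC, 280 and 364 in WT day 2 and 227 and 279 in KO day 2 (2.13 ± 0.26, adjusted p = 0.00186). Here WT fell to the level that KO already had. Kif1a, a kinesin motor of axons, had 53.9 and 98.4 in WT mESC, 12.3 and 16.2 in KO mESC, 1663 and 2512 in WT day 2 and 2534 and 2578 in KO day 2 (2.61 ± 0.38, adjusted p = 0.00466). Thy1, a surface glycoprotein of neurons and fibroblasts, had 316 and 362 in WT mESC, 111 and 118 in KO mESC, 721 and 746 in WT day 2 and 941 and 1108 in KO day 2 (2.04 ± 0.28, adjusted p = 0.00329).

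The integrated stress response is the programme that ATF4 drives when amino acids run short. Of 25 members 2 were called, both above 0 (8.0%, against 1.13% of all tested genes). The median was 0.46, with 23 members above 0. Against WT, 7 were called lower in KO in mESC and none at day 2, against 6.26% and 3.64% of all tested genes. Cth was called higher in KO at both stages. Chac1, which degrades glutathione, had 239 and 285 in WT mESC, 86.3 and 101 in KO mESC, 875 and 883 in WT day 2 and 1161 and 1220 in KO day 2 (1.91 ± 0.24, adjusted p = 0.00186). Mthfd2, a mitochondrial enzyme of the folate cycle, had 4999 and 5172 in WT mESC, 3194 and 3348 in KO mESC, 6496 and 6963 in WT day 2 and 7578 and 7837 in KO day 2 (0.83 ± 0.15, adjusted p = 0.0194). Atf4 itself and Asns, asparagine synthetase, had stage differences of 0.18 ± 0.17 and 0.09 ± 0.18. The calls of Ccnd2, D1Pas1, Kif1a, Thy1 and Chac1 held in all 8 fits that left out 1 library. That of Mthfd2 was lost without library A of WT mESC, library B of WT day 2 or any KO library (adjusted p up to 0.122).

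Further genes with the largest stage differences above 0 included some with low counts in 1 group. Antxr2, an anthrax toxin receptor, was at 0 in both KO mESC libraries, 4.74 and 9.16 in WT mESC, and 58.1 to 89.4 in the 4 day 2 libraries, so no fold is given and its fitted stage difference of 3.49 ± 0.74 (adjusted p = 0.0431) is no bound. Napsa, an aspartic protease, fell from 92.6 and 96.0 to 1.82 and 6.52 in WT and from 20.2 and 21.6 to 7.48 and 9.6 in KO (3.17 ± 0.69, adjusted p = 0.0481). Gli1, the transcriptional readout of hedgehog signalling, fell from 242 and 273 to 88.4 and 101 in WT and rose from 47.2 and 53.8 to 85.3 and 96.8 in KO (2.27 ± 0.40, adjusted p = 0.0146). Nags, the mitochondrial N-acetylglutamate synthase, Ankrd34a and Hopx, a small homeodomain protein, were lower in KO mESC, with stage differences of 2.42 ± 0.50, 2.41 ± 0.42 and 2.18 ± 0.36. Pdzrn3, a PDZ ubiquitin ligase, and Nrcam, a neuronal adhesion molecule, were called higher in KO at day 2 alone, at 542 and 585 against 154 and 240, and 386 and 435 against 91.3 and 208 (2.33 ± 0.44 and 2.28 ± 0.44). Hopx was lost without library B of KO mESC or of KO day 2 (adjusted p up to 0.0825), and Gli1 without library A of WT mESC, library B of KO mESC or either KO day 2 library (up to 0.0993). Ankrd34a was lost without library A of WT mESC, B of KO mESC, B of WT day 2 or A of KO day 2 (up to 0.114). Nrcam was lost without library A of WT mESC or any KO library (up to 0.136), and Pdzrn3 without the same libraries or library B of WT day 2 (up to 0.143). Napsa was lost in all but the fit without library B of WT day 2 (up to 0.225). Nags and Antxr2 were lost in all 8 (up to 0.215 and 0.225).

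Outside the interferon genes, the largest stage differences below 0 were of mixed function. Asb9, a substrate adaptor of a ubiquitin ligase, had 12.2 and 21.3 in WT mESC, 16.2 and 16.8 in KO mESC, 238 and 355 in WT day 2 and 5.17 and 15.7 in KO day 2 (−4.87 ± 0.73, adjusted p = 0.00545). It rose in WT, no change was called in KO, and the groups did not overlap at day 2. Gm1141, on the X chromosome, had 28.5 and 54.9 in WT mESC, 80.9 and 88.5 in KO mESC, 115 and 124 in WT day 2 and 14 and 19.5 in KO day 2 (−3.86 ± 0.57, adjusted p = 0.00512). Spic, an ETS factor of macrophages and mESC, was at 141 and 157 in WT mESC, 195 and 217 in KO mESC, 11.6 and 27.8 in WT day 2 and 0 in both KO day 2 libraries, so no fold is given and its fitted value of −4.72 ± 0.90 (adjusted p = 0.0237) is no bound. Cdh18, a cadherin, was at 1.19 and 0 in WT mESC, 4.05 and 6.72 in KO mESC, 40.6 and 64.8 in WT day 2 and 5.99 and 6.65 in KO day 2, and the fitted value of −4.92 ± 1.01 (adjusted p = 0.0375) rests on these near-0 counts. Slc6a14, an amino acid transporter, Slc35g2 and Olfml1 had stage differences of −3.31 ± 0.63, −3.11 ± 0.58 and −3.0 ± 0.65. Asb9 and Gm1141 were called in all 8 fits that left out 1 library. Slc6a14 was lost without library A of WT mESC, B of KO mESC, B of WT day 2 or A of KO day 2 (adjusted p up to 0.131). Spic was lost without library A of WT mESC or any KO library (up to 0.108), and Slc35g2 without the same or library B of WT day 2 (up to 0.099). Olfml1 was lost in all but the fit without library A of WT day 2 (up to 0.231), and Cdh18 in all but the one without library A of WT mESC (up to 0.154).

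Imprinted genes, whose single active allele is set by DNA methylation, moved in both directions. Of 44 tested, 3 were called above 0 and 1 below (9.09%, against 1.13% of all tested genes). The median was −0.01, with 22 members on each side of 0. Grb10, a growth-limiting adaptor of insulin signalling, had 2858 and 3792 in WT mESC, 544 and 615 in KO mESC, 4630 and 6002 in WT day 2 and 3167 and 3515 in KO day 2, lower in KO at both stages and by less at day 2 (1.85 ± 0.23, adjusted p = 0.00186). Peg10, a retrotransposon-derived gene of the placenta, had 1897 and 2735 in WT mESC, 2835 and 2848 in KO mESC, 3171 and 3858 in WT day 2 and 1138 and 1439 in KO day 2 (−1.77 ± 0.24, adjusted p = 0.00333). It rose in WT and fell in KO. Usp29 and Inpp5f passed just under the threshold, at 1.43 ± 0.31 (adjusted p = 0.0477) and 0.96 ± 0.20 (adjusted p = 0.0406). Genes of the Meg3 cluster, Meg3, Rian and Mirg, were far higher in KO at both stages, with Rian at group means of 53 and 3126 in WT and KO mESC and 88.7 and 8873 at day 2, and their stage differences of 1.26 ± 0.52, 0.76 ± 0.30 and 0.01 ± 0.85 did not pass. Grb10 and Peg10 were called in all 8 fits that left out 1 library. Usp29 was lost in all but the one without library A of WT day 2, and Inpp5f in all 8 (adjusted p up to 0.213 for each).

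The lists of Lin28 and let-7 targets, glycolysis and retinoic acid held 1 or 2 called genes each. These made up 8.33%, 8.7% and 5.56% of the lists, against 1.13% of all tested genes. Hmga2, a chromatin protein and let-7 target, had 693 and 889 in WT mESC, 728 and 765 in KO mESC, 243 and 281 in WT day 2 and 861 and 959 in KO day 2, so that the fall in WT was not called in KO (1.87 ± 0.23, adjusted p = 0.00186). In the list of Lin28 and let-7 targets it was the only called gene of 12 and the median was 0.18. Of 23 glycolysis genes 1 was called in each direction and the median was 0.06. Pdk1, the kinase that holds pyruvate dehydrogenase off, had 7084 and 7768 in WT mESC, 5208 and 5608 in KO mESC, 20979 and 22235 in WT day 2 and 6615 and 7197 in KO day 2 (−1.19 ± 0.21, adjusted p = 0.0145). Slc2a3, the glucose transporter GLUT3, had 3312 and 3624 in WT day 2 and 6932 and 7030 in KO day 2, from 14430 to 18707 in the 4 mESC libraries (1.09 ± 0.20, adjusted p = 0.0207). Crabp1, a binding protein for retinoic acid, was lower in KO at both stages, at 184 and 216 against 712 and 742 in mESC and at 364 and 412 against 605 and 640 at day 2, and was the only called gene of 18 in the retinoic acid list (1.18 ± 0.22, adjusted p = 0.0226). Hmga2 was called in all 8 fits that left out 1 library. Pdk1 was lost without any 1 of the 4 KO libraries (adjusted p up to 0.0932). Slc2a3 was lost without library A of WT mESC, B of KO mESC or either of KO day 2 (up to 0.124), and Crabp1 without library A of WT mESC or any KO library (up to 0.147).

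**Figure D4:**
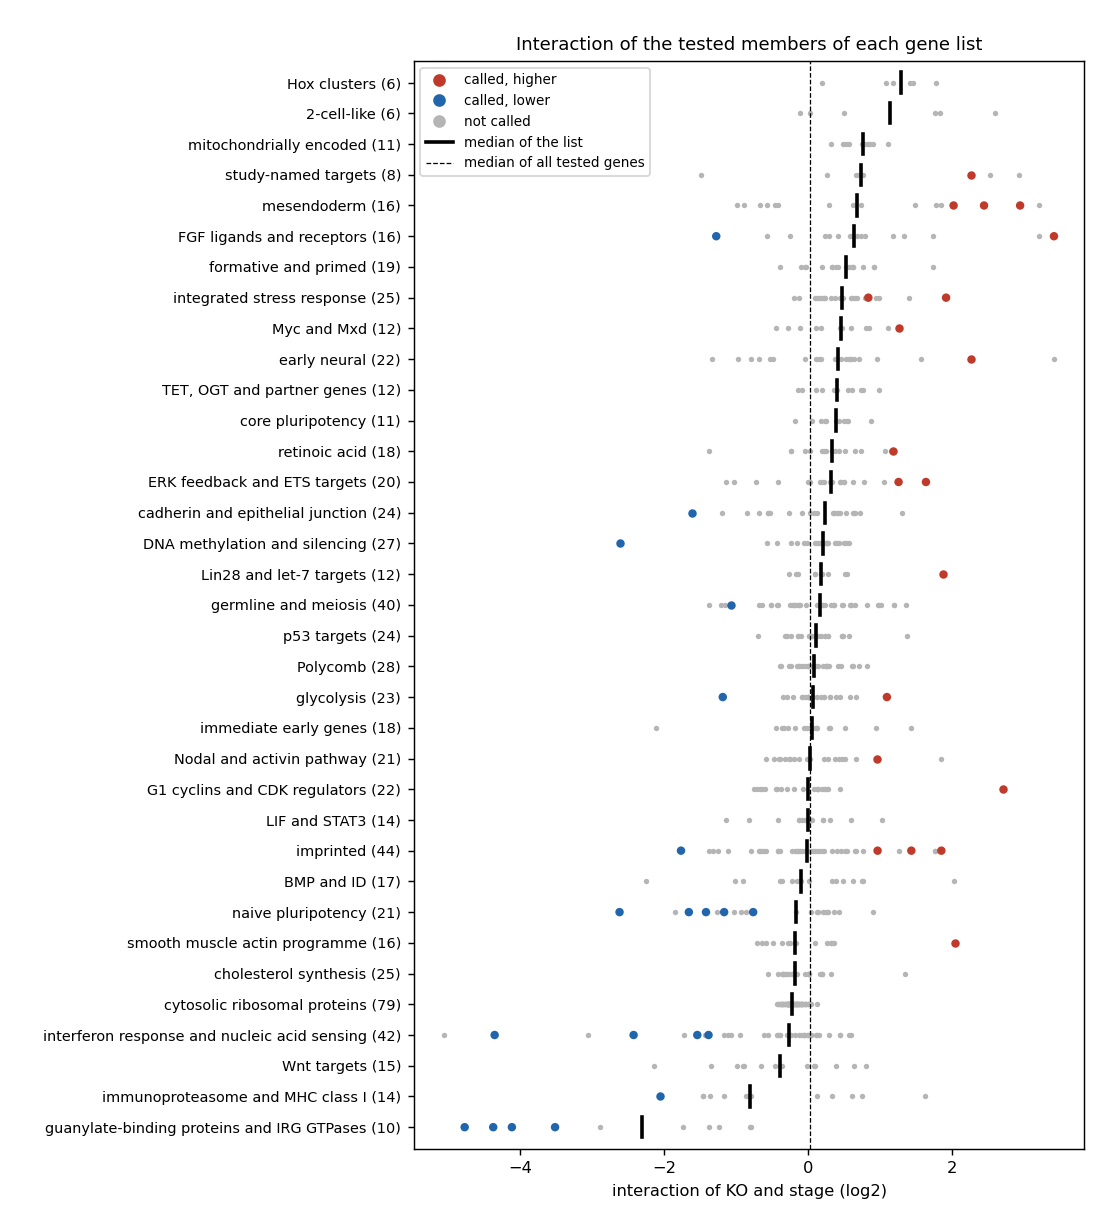
Stage difference of every tested member of the gene lists (log2 scale, horizontal axis), with 1 row per list, called members in colour and the median of each list marked. The guanylate-binding proteins and IRG GTPases have 10 of 10 members below 0 and a median of −2.32, against a median of 0.02 over all genes.

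In 17 of 40 lists no member was called. Core pluripotency genes had a median of 0.39 over 11 members, with Pou5f1, which encodes OCT4, at 0.18 ± 0.28 (group means of 93456 and 124599 in WT and KO mESC and 53502 and 80333 at day 2). Formative and primed genes had a median of 0.52 over 19, with Dnmt3b, a methyltransferase gene, at 0.52 ± 0.23. Medians of lists with few members above the limit were larger, at 1.29 for 6 Hox genes, 1.13 for 6 2-cell-like genes and 0.75 for 11 mitochondrially encoded genes, all with 0 called. The members with the highest mean in the last 2 were Eif1a at 0.02 ± 0.22 and COX1 at 0.53 ± 0.30. The mitochondrial share of reads was 0.370% to 0.577% in the mESC libraries of WT and KO and 0.160% to 0.207% at day 2, higher in WT than KO in mESC, and the part of this in the stage differences was not tested.

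Signalling lists were also without calls. Wnt targets had a median of −0.39 over 15 members (Ctnnb1, beta-catenin, at 0.09 ± 0.18), BMP and ID genes −0.10 over 17 (the receptor gene Bmpr1a at −0.23 ± 0.19), LIF and STAT3 genes −0.00 over 14 (the kinase gene Pim3 at 0.04 ± 0.18) and immediate early genes 0.05 over 18 (Ier2 at 0.03 ± 0.19). Within the last, Egr1 and Fos, both induced by ERK, had unlike patterns that did not pass. Egr1 had group means of 156 and 14.4 in WT and KO mESC and 1059 and 270 at day 2 (1.42 ± 0.48, adjusted p = 0.207). Fos had 38.8 and 20.1, and 77.0 and 8.56 (−2.12 ± 0.59, adjusted p = 0.125). A CArG box, the element of serum response factor, was in 6 of 16 promoters of this list (37.5%) and in 1.19% of all promoters. The medians of the BMP, LIF and imprinted lists lie so near 0 that their signs change when libraries are scaled to equal totals.

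Chromatin, housekeeping and cell type lists closed the set. Polycomb genes had a median of 0.09 over 28 members (Rbbp4 at −0.12 ± 0.33), p53 targets 0.10 over 24 (Ccng1 at 0.09 ± 0.21), cholesterol synthesis genes −0.18 over 25 (Fdps at 0.01 ± 0.22) and cytosolic ribosomal proteins −0.23 over 79, with 76 below 0 (Rps3 at −0.37 ± 0.44). Ribosomal proteins took 13.1% and 16.3% of reads in the WT mESC libraries, 17.8% and 20.1% in KO mESC, 12.7% and 16.1% in WT day 2 and 16.8% in each KO day 2 library. Markers of primitive endoderm and trophoblast had medians of 0.07 and −0.14 over 6 members each, with Lama1, a laminin chain of basement membrane, at 0.66 ± 0.36 and Tfap2c, a trophoblast and germ cell factor, at −1.16 ± 0.29 (adjusted p = 0.0842), and the macrophage marker Cd68 was at −0.72 ± 0.27.

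The study names 9 developmental regulators as targets of PROSER1, of which 8 passed the limit on the mean. They were named on these samples, so their direction is not independent evidence. Pax6, a regulator of eye and forebrain, was the only one called (12.5%, against 1.13% of all tested genes). It was also the only called gene of 22 in the early neural list (4.55%). Pax6 had 53.3 and 70.2 in WT mESC, 33.7 and 37.0 in KO mESC, 47.8 and 56.3 in WT day 2 and 118 and 182 in KO day 2 (2.26 ± 0.45, adjusted p = 0.0311). It rose in KO and not in WT by these tests, and the call was lost without library B of WT mESC, library B of WT day 2 or any KO library (adjusted p up to 0.188). Barx1, a homeobox gene, had 5.09 and 13 in WT mESC, 2.24 and 2.70 in KO mESC, 31.9 and 36.3 in WT day 2 and 96.5 and 100.5 in KO day 2 (2.92 ± 0.69, adjusted p = 0.0673). Cbx8, Prdm8 and Tbx15 had stage differences of 0.26 ± 0.38, 2.53 ± 1.15 and 0.75 ± 0.64 and Mef2c, a MADS-box factor, one of −1.49 ± 1.02, none of which passed. Eya4 did not reach a mean of 10, with 21.4 and 34.4 in KO day 2 and 0 to 3.03 in the other libraries of WT and KO.

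Proser1 itself was not lost at the RNA level, and its stage difference did not pass. It had 550 and 889 in WT mESC, 502 and 576 in KO mESC, 685 and 829 in WT day 2 and 872 and 1067 in KO day 2 (0.74 ± 0.28, adjusted p = 0.276), and 2828 to 3090 in the 4 KO+Rescue libraries, which carry the transgene. The study selected KO clones by loss of the protein, so the transcript does not check the label of KO, while the KO+Rescue libraries stood above all others. Of the 8 fits that left out 1 library, the one without library B of WT mESC called it, at 1.08 (adjusted p = 0.0304), and the others gave 0.39 to 0.88. Of the 12 tested genes on TET enzymes, OGT and their partners none was called, and the median was 0.39. Tet1 and Tet2, the TET genes of mESC, had stage differences of 0.99 ± 0.28 (adjusted p = 0.128) and 0.75 ± 0.25 (adjusted p = 0.209), Ogt one of −0.09 ± 0.19 and Nono, an RNA-binding partner, one of 0.19 ± 0.18.

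KO+Rescue shares its WT controls with KO, so each stage difference is given beside the other and no overlap is drawn. The 7 genes given next lay below 0 in both lines. Irf1 was at −1.39 in KO and −1.84 in KO+Rescue (adjusted p = 0.00154), and Tapbp at −2.06 and −2.26 (adjusted p = 0.00154). Zbp1 was at −4.36 and −3.85 (adjusted p = 0.00752), and Gbp4 at −3.52 and −3.17 (adjusted p = 0.0146). Dppa3 was at −2.62 and −1.69 (adjusted p = 0.0278), Sdc4 at −1.74 and −1.46 (adjusted p = 0.0017) and Cldn4 at −1.62 and −1.40 (adjusted p = 0.0017). At day 2 KO+Rescue had 49.8 and 68.1 normalised counts of Gbp2, where KO had 49.4 and 76.1 and WT 1610 and 1994. In mESC it had 2.09 and 10.7 of Gbp2, below both other lines, and its stage difference of −1.49 did not pass (adjusted p = 0.374).

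For other genes the stage difference of KO+Rescue was nearer to 0. Trh had 2413 and 2685 in KO+Rescue day 2, below the 5200 and 5718 of WT, and 21568 and 21595 in KO+Rescue mESC, and its stage difference was 2.02 in KO and −0.76 in KO+Rescue (adjusted p = 0.0951). Eomes was at 2.44 and −0.20 (adjusted p = 0.854), with 51.7 and 73.9 in KO+Rescue day 2 against 310 and 312 in KO. Peg10 was at −1.77 and −0.11 (adjusted p = 0.887), and Fgfbp1 at −1.28 and −0.12 (adjusted p = 0.886). Grb10 and Hmga2 lay above 0 in both lines, at 1.85 and 2.64 (adjusted p = 0.00048) and at 1.87 and 1.95 (adjusted p = 0.0017). T, called in the mesendoderm list with Trh and Eomes, also stayed above 0 in both, at 2.94 and 2.03 (adjusted p = 0.028). The stage differences of KO and KO+Rescue were not tested against each other.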

How the data were processed

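RNA-seq of WT, KO and KO+Rescue cells in mESC and at day 2 was taken from the single deposited table, which holds, per gene and library, counts that the authors divided by size factors (a signal in normalised counts). By the study's methods, reads were trimmed with Trimmomatic, aligned to mm10 with STAR, stripped of Y-chromosome reads, assigned as pairs to mm10 RefSeq genes with featureCounts and normalised with DESeq2; the versions are not given in the sources used here. In each column all values (100.0%) were whole multiples of 1 read within 0.001, which gave back whole reads and the depth of each library. Columns coded 39 and 39R were read as KO and KO+Rescue, which no label states in words. No column was left unused (0).

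The stage difference was fitted with limma 3.58.1 (R 4.3.3) on log2(normalised count + 1), 6 group means over all 12 libraries, empirical Bayes with an intensity trend, two-sided, with Benjamini-Hochberg adjustment over 15341 genes and a threshold of 0.05. The pseudocount of 1 understates changes of low genes. Scripts were tested on simulated data. Alternatives were edgeR 4.0.16 and DESeq2 1.42.0 on the recovered reads, TMM or equal-total scaling, other pseudocounts and filters, no trend, the 8 WT and KO libraries alone, a replicate block and each library left out.

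Named genes were Proser1, the 15 largest called stage differences in each direction with a group mean of at least 50 and single-library differences that do not overlap, up to 4 called members of each list (lists without calls gave their most abundant member), the 9 study-named targets, and up to 10 called genes per orientation with opposite KO effects at the 2 stages. Values of a few of these genes are not reported here. The members and the 40 gene lists were chosen with earlier results of these data known. Coordinates and promoters are from RefSeq on GRCm38, matched by symbol for 94.6% and 74.3% of tested genes.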

Additional observations from a re-analysis of the deposited data

Results flagged for a closer look

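The KO effect differed between mESC and day 2 for 173 genes, by the test of the difference itself (the limma contrast of the 2 KO effects). Each of the 67 named genes that passed is given with its stage difference (log2), below 0 where KO stood lower relative to WT at day 2 than in mESC, and what moves with these values in the libraries is given in the report.

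Among interferon-stimulated genes the values were −4.77 for Gbp3, −4.38 for Gbp2, −4.36 for Zbp1, −4.12 for Gbp2b, −3.52 for Gbp4, −2.43 for Parp14, −2.06 for Tapbp, −1.54 for Parp9, −1.39 for Irf1 and −4.40 for Cd274. Naive, germline and imprinted genes below 0 had −2.62 for Dppa3, −1.66 for Nr5a2, −1.42 for Fbxo15, −1.17 for Pecam1, −0.77 for Tdh, −1.07 for Tex19.1 and −1.77 for Peg10. Genes whose KO effect turned from above to below WT had −4.00 for Ackr4, −3.52 for Cyp1a1, −2.86 for Ackr3, −2.04 for Ptgr1, −1.87 for Lhfpl2, −1.74 for Sdc4, −1.73 for 2610037D02Rik, −1.72 for Klhl3, −1.68 for Gstp2 and −1.62 for Cldn4. The rest below 0 were −4.92 for Cdh18, −4.87 for Asb9, −4.72 for Spic, −3.86 for Gm1141, −3.31 for Slc6a14, −3.11 for Slc35g2, −3.0 for Olfml1, −1.28 for Fgfbp1 and −1.19 for Pdk1.

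Among genes above 0, those whose KO effect turned from below to above WT had 2.94 for T, 2.02 for Trh, 1.85 for Arhgef5, 1.78 for Ddah1 and 1.18 for Vrtn. Developmental and signalling genes had 3.41 for Fgf15, 2.44 for Eomes, 2.27 for Gli1, 2.26 for Pax6, 1.63 for Il17rd, 1.25 for Myc, 1.18 for Crabp1 and 0.95 for Smad7. Growth, stress and imprinted genes had 2.71 for Ccnd2, 1.91 for Chac1, 1.87 for Hmga2, 1.85 for Grb10, 1.43 for Usp29, 1.09 for Slc2a3, 0.96 for Inpp5f and 0.83 for Mthfd2. The rest above 0 were 3.49 for Antxr2, 3.17 for Napsa, 2.61 for Kif1a, 2.42 for Nags, 2.41 for Ankrd34a, 2.33 for Pdzrn3, 2.28 for Nrcam, 2.18 for Hopx, 2.13 for D1Pas1 and 2.04 for Thy1.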

How the results depend on the processing

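The number of genes with a called stage difference depended strongly on single libraries and on the model, while the direction did not: all 173 kept their sign in each of the 19 alternatives that gave a value, and 43 (16 above 0, 27 below) were called in all 19. These alternatives refit the libraries that chose the 173 genes, so their kept signs are no independent evidence of direction. Against 173 (77 above 0, 96 below), the count was 68 (23 and 45) with the 8 WT and KO libraries alone and 105 (43 and 62) without a filter. It was 99 (38 and 61) with libraries scaled to equal totals, 475 (237 and 238) with DESeq2 and 121 (62 and 59) with no trend. The count was 213 (102 and 111) with edgeR on the recovered reads and 176 with TMM scaling. Equal totals moved the median stage difference of all genes from 0.02 to 0.13. Leaving out 1 library gave 48 to 347 genes (18 to 211 above 0, 30 to 152 below), fewest without library B of KO mESC and most without library B of WT mESC. KO against WT gave 392 to 3225 genes in mESC and 246 to 984 at day 2 in these fits, 950 in mESC with the 8 libraries alone, and 1428 at day 2 with DESeq2.

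Libraries share the letters A and B in each group, and nothing in the labels ties them. Deviations of libraries with the same letter correlated at −0.05 to 0.41 over the 15 pairs of groups, over 0.1 in 6 of them (highest for WT mESC with WT day 2) and not in the other 9, so these values do not settle whether the letters pair the libraries and the letter was left out of the reported fit. A fit with this letter as a replicate block called 500 stage differences (243 and 257), 3657 genes for KO against WT in mESC and 1619 at day 2.

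None of the 67 called named genes changed sign. Among named genes that were not called and lie near 0, leaving out 1 library turned the sign of Pou5f1 (−0.04 to 0.40), Ier2 (−0.08 to 0.14), Pim3 (−0.06 to 0.14), Rbbp4 (−0.44 to 0.19), Ccng1 (−0.09 to 0.28), Eif1a (−0.15 to 0.19), Fdps (−0.19 to 0.20) and Cbx8 (−0.02 to 0.54). The causes of these changes were not tested. With 2 libraries per group, a stage difference that missed the threshold does not show equal KO effects, and genes with few reads in 1 group have fitted values that depend on the pseudocount.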

Other observations

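Of the 173 called genes 136 are in none of the 40 lists. The genes below are outside the rule for named genes and were chosen after their values were seen, from those called in every one of the 8 fits that left out 1 library. Nab2, a corepressor of EGR factors that is itself an ERK-induced gene, had 132 and 223 normalised counts in WT mESC, 145 and 152 in KO mESC, 599 and 717 in WT day 2 and 86.4 and 107 in KO day 2, a stage difference of −2.55 ± 0.35 (log2, SE, adjusted p = 0.00332). It rose in WT alone, and WT and KO did not overlap at day 2. Ube2l6, the conjugating enzyme for ISG15, had 755 and 919 in WT mESC, 818 and 929 in KO mESC, 199 and 203 in WT day 2 and 38.9 and 46.5 in KO day 2 (−2.28 ± 0.25, adjusted p = 0.0018). Metallothionein Mt1, a metal-binding stress protein, had 8193 and 9499 in WT mESC, 10675 and 11706 in KO mESC, 10339 and 13362 in WT day 2 and 4472 and 4729 in KO day 2 (−1.70 ± 0.20, adjusted p = 0.00186), and the glutathione S-transferase gene Gsta3 had 923 to 1473 in the 4 mESC libraries, 151 and 172 in WT day 2 and 28.4 and 40.6 in KO day 2 (−2.46 ± 0.37, adjusted p = 0.00574). Dmrt1, a regulator of male germ cells, had 3328 and 3971 in WT mESC, 2787 and 2972 in KO mESC, 4892 and 5863 in WT day 2 and 1662 and 1699 in KO day 2 (−1.33 ± 0.18, adjusted p = 0.00329). Ngfr, the low-affinity neurotrophin receptor, was lower in KO at both stages, at 623 and 733 against 946 and 1271 in mESC and 26.6 and 38.2 against 246 and 295 at day 2 (−2.34 ± 0.31, adjusted p = 0.00286).

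Above 0, Slc16a3, which encodes the lactate exporter MCT4, had 946 and 1005 in WT mESC, 206 and 310 in KO mESC, and 12098 to 13706 in the 4 day 2 libraries, where WT and KO overlapped (1.95 ± 0.24, adjusted p = 0.00186). Ggt1, an enzyme of glutathione breakdown, had 502 and 581 in WT mESC, 183 and 184 in KO mESC, 169 and 183 in WT day 2 and 210 and 214 in KO day 2 (1.81 ± 0.27, adjusted p = 0.00582). Gli2, a transcription factor of hedgehog signalling, had 574 and 742 in WT mESC, 562 and 610 in KO mESC, 99.3 and 113 in WT day 2 and 296 and 344 in KO day 2 (1.74 ± 0.24, adjusted p = 0.00329), so that the fall on leaving the stem cell state was smaller in KO.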
